A study of Mus musculus with 20 samples.

Results

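The 10 liver genes of tryptophan (Trp) breakdown and nicotinamide adenine dinucleotide (NAD) synthesis described here were chosen by name, as genes of this pathway, with earlier results of these data known: Tdo2, Ido2, Afmid, Kmo, Kynu, Haao, Qprt, Acmsd, Nampt and Nnmt. They are 10 of the 46078 genes of a table of RNA-seq read counts on genes, from the livers of 20 male mice. All 10 had enough counts for a test. The mice were on a 129/C57BL/6 background, at least 9 weeks old at the start, and all had first been held on restricted amounts of the control diet. The control, no-Cys and no-Trp test diets were restricted as well. Livers were collected on day 2 of the test diet. Cse (gene symbol Cth) encodes cystathionine γ-lyase, which makes cysteine (Cys), and it was deleted in the whole animal in Cse-/- mice.

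The 6 groups were Cse+/- mice on the control diet (n = 2), on a diet without Cys (no-Cys, n = 4) or on a diet without Trp (no-Trp, n = 3), together with Cse-/- mice fed no-Cys (n = 4), no-Trp (n = 3) or no-Trp plus BSO (n = 4). BSO, or l-buthionine sulfoximine, blocks γ-glutamyl cysteine synthase and with it glutathione synthesis. For its liver and serum assays at day 2, the paper describes the Cse-/- mice on no-Trp with BSO as calorie-restricted too. The labels name the control genotype WT, but the list of mice names it heterozygous, and Cse+/- is used here. No Cse-/- mice on the control diet were analysed here, so that the effect of a diet could be set against the control diet in Cse+/- mice alone, and there with 2 control livers. Libraries held 11785740 to 57986121 counts on genes. Cth ranged from 6.37 to 14.4 CPM (counts per 1000000 counts on genes) in the Cse-/- libraries and from 88.4 to 331.9 CPM in the Cse+/- libraries, so no label was contradicted. All 9 hepatocyte markers checked were expressed, whereas the 6 pancreas markers were together at most 1.98 CPM. Library av01 (Cse+/-, no-Cys) and library av08 (Cse-/-, no-Cys) stood apart from their groups for several of the genes. Several, but not all, of the results that rest on them are given with and without them.

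Most dietary Trp that is not used for protein is degraded in hepatocytes. Tdo2, and to a lesser degree Ido2, open the indole ring. Afmid then frees kynurenine, Kmo hydroxylates it, Kynu splits off alanine and Haao opens the ring of the product, 3-hydroxyanthranilate. The resulting unstable intermediate either closes by itself to quinolinate, which Qprt turns into nicotinate mononucleotide on the way to NAD, or is drawn off by Acmsd towards full oxidation. NAD is also rebuilt from nicotinamide by Nampt, the rate-limiting enzyme of that salvage route. Nnmt methylates nicotinamide and removes it from the cycle. In bulk tissue, fewer cells of a type and less RNA per cell cannot be told apart.

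The genes differed widely in level when counts were divided by exon length. Over all 20 libraries Tdo2 had 516.7 ± 90.3 CPM per kilobase (kb) of exon (mean ± SD, n = 20), more than any other of the 10. Nnmt (90.8 ± 41.6), Haao (73.8 ± 14.6), Kmo (64.2 ± 9.86) and Qprt (59.2 ± 8.37 CPM per kb) came next. Neighbours in this order differed by less than the larger SD of the pair, and these SDs include differences between groups. The order was not the same in every group, since in Cse+/- no-Cys livers Nnmt averaged 65.8 CPM per kb, below Haao (86.1) and Kmo (66.8 CPM per kb). Nampt followed with 28.4 ± 8.58, Kynu with 21.2 ± 3.31 and Ido2 with 20.7 ± 5.30 CPM per kb, where neighbours again differed by less than the larger SD of the pair. Afmid (10.9 ± 2.59) and Acmsd (6.55 ± 1.79 CPM per kb) were lowest. Reads from part of the exons of Afmid may be missing from its count, as given below. Its full exon length was still the divisor, so that its place in this order may be too low. Of the pair that open the indole ring, Tdo2 was thus far above Ido2 in every group, and of the pair that act after Haao, Qprt was above Acmsd in every group.

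**Figure D1:**
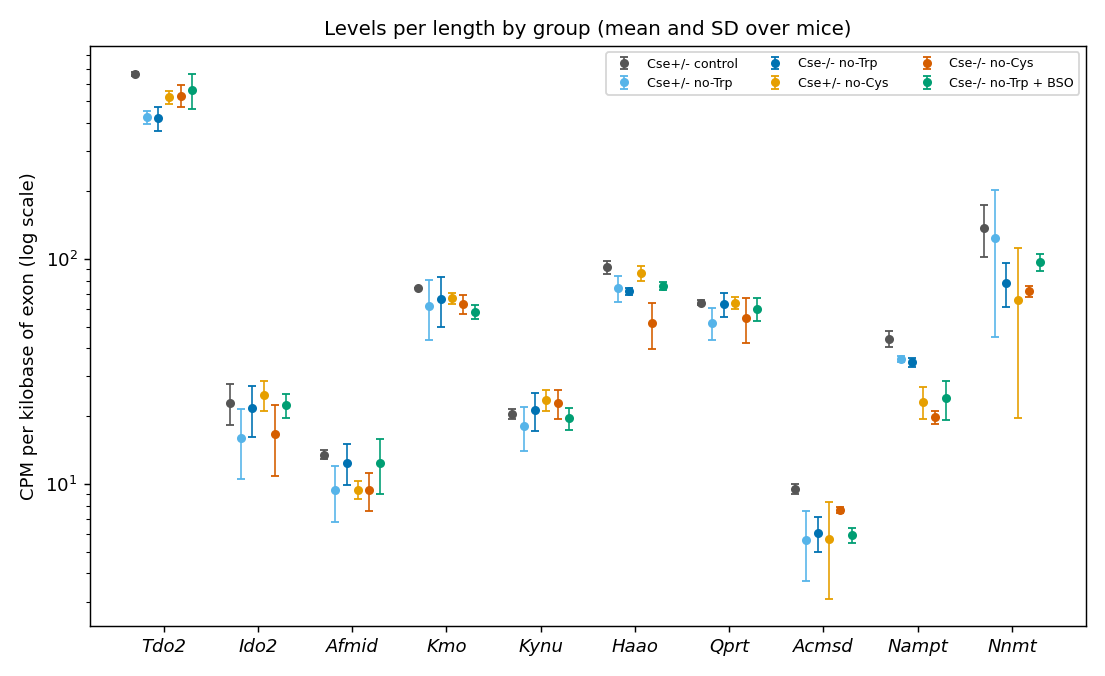
Level of each gene per exon length (CPM per kb, log axis) in the 6 groups, as the mean with an SD bar over the mice of a group. Tdo2 lies above all others in every group, with group means from 421 to 662 CPM per kb, and Acmsd is lowest, with group means from 5.63 to 9.49 CPM per kb.

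The levels in each library, not corrected for length, showed where the groups separated. Nampt and Tdo2 placed the no-Trp and no-Cys diets in opposite order, and Haao was lowest in Cse-/- livers on the no-Cys diet. The other 7 genes overlapped between most groups.

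**Figure D2:**
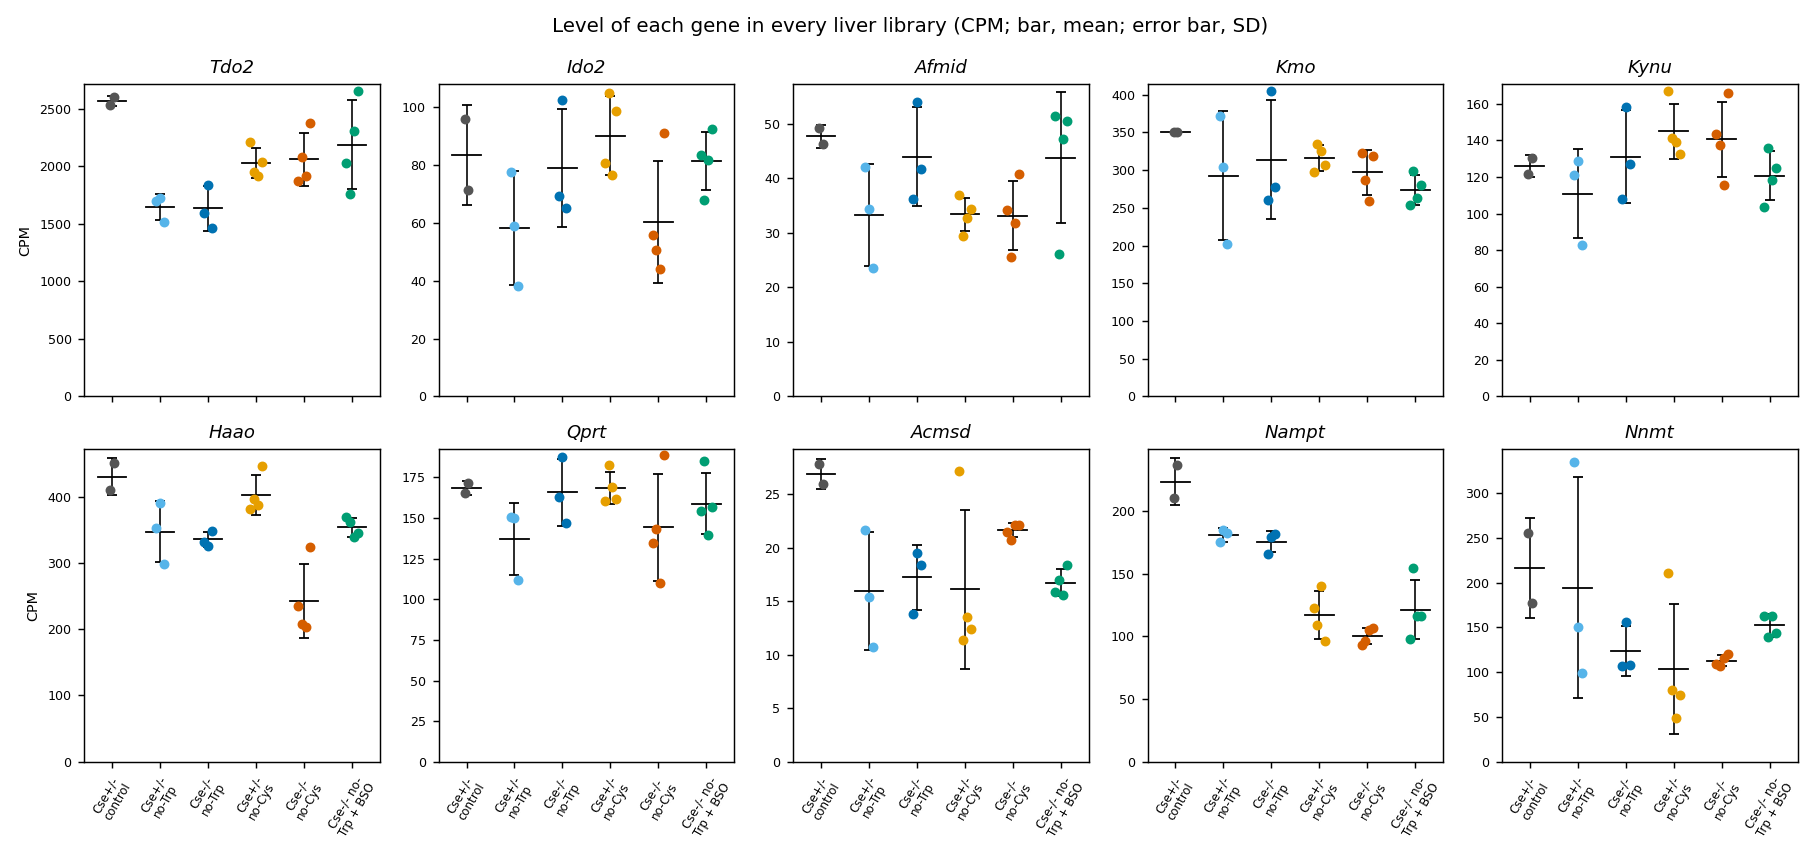
Level of the 10 genes in every library (CPM, axes from 0), by group. Points are mice, the horizontal bar is the mean and the error bar the SD. Nampt in the 6 no-Trp livers without BSO (166.0 to 185.0 CPM) lies above all 8 no-Cys livers (93.1 to 140.5 CPM), and Haao in Cse-/- no-Cys livers (203.9 to 324.1 CPM) lies below Cse+/- no-Cys livers (381.1 to 447.0 CPM).

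Nampt (ENSMUSG00000020572, GRCm38 chromosome 12, 32819545 to 32853349, plus strand) was called in 3 of the planned comparisons between diets, more than any other of the 10. It was at 210.2 and 236.7 CPM in the control livers. In Cse+/- mice it was at 175.0, 185.0 and 182.8 CPM on the no-Trp diet and at 122.4, 109.2, 140.5 and 96.4 CPM on the no-Cys diet. In Cse-/- mice it was at 166.0, 179.7 and 181.4 CPM on the no-Trp diet, at 93.1, 96.2, 104.8 and 107.1 CPM on the no-Cys diet, and at 97.9, 154.5, 116.4 and 116.6 CPM when BSO was given with no-Trp. The no-Cys and no-Trp livers did not overlap in either genotype, and all lay below both control livers.

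In Cse+/- mice, Nampt was 1.91-fold lower on the no-Cys than on the control diet (log2 fold change -0.93, SE 0.144, adjusted p = 0.00241, edgeR quasi-likelihood test adjusted over 14759 genes). It was the 1 gene of the 10 called in that comparison, in which 2.18% of all genes were called, and 5 of the 10 had no overlap beside 25.6% of all genes. Without control library av22 the log2 fold change was -0.85 and was not called (adjusted p = 0.0964), and over all genes 10 were called in place of 322, whereas without the other control library, av21, the call was kept (-1.02, adjusted p = 0.00714). Between the same groups the hepatocyte markers summed to between 100016 and 126935 against between 129448 and 130946 CPM, and the 4 cholangiocyte markers to between 42.2 and 49.9 against between 52.6 and 78.6 CPM, with 1 of the latter called lower. The 9 Kupffer cell and macrophage markers went the other way, summing to between 235.2 and 287.6 against between 209.0 and 232.8 CPM. Against the no-Cys diet, Nampt was higher on the no-Trp diet in Cse+/- mice (log2 fold change 0.63, SE 0.130, adjusted p = 0.00717; 8.04% of genes called) and in Cse-/- mice (log2 fold change 0.81, SE 0.130, adjusted p = 7.57e-04; 10.4% of genes called). Both calls held under every alternative run. In Cse+/- mice, 2 of 6 endothelial markers were called higher in that comparison and adipocyte markers summed to between 22.7 and 51.4 against between 13.7 and 19.0 CPM. In Cse-/- mice, 4 of 9 hepatocyte, 1 of 4 cholangiocyte and 3 of 5 red cell markers were called higher on no-Trp. The part of these markers in the Nampt values was not tested. Of the 10 genes 4 had no overlap in each of these comparisons, beside 19.0% of all genes in Cse+/- mice. In Cse-/- mice 2 of these were higher (Haao and Nampt) and 2 lower (Tdo2 and Acmsd), beside 9.83% and 10.2% of all genes. In an average over the genotypes, added after the other comparisons had been seen, Nampt was 1.64-fold higher on the no-Trp diet (log2 fold change 0.72, SE 0.0919, adjusted p = 1.14e-04; 15.4% of genes called). The genotypes themselves were close: the Cse-/- minus Cse+/- difference in log2 Nampt was -0.22 (SE 0.122, adjusted p = 0.193) on the no-Cys diet and -0.04 (SE 0.139, adjusted p = 0.908) on the no-Trp diet, and the difference between those differences was -0.18 (SE 0.185, adjusted p = 0.640).

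With BSO, the Nampt values of no-Trp livers overlapped the no-Cys range. The 4 livers with BSO lay below the 3 without it, at a log2 fold change of -0.53 (SE 0.130), which missed the threshold (adjusted p = 0.0567). DESeq2 called it (adjusted p = 0.00692), as did the fit without library av10, whose 154.5 CPM was the highest of the BSO group (log2 fold change -0.68, adjusted p = 0.00526). Over the 14 alternatives the adjusted p ranged from 0.00526 to 0.180, with 4 calls. Between the same livers the adipocyte markers summed to between 16.8 and 18.2 CPM with BSO against between 18.8 and 44.1 CPM without. All 4 of them with enough counts were lower (median log2 fold change -2.29), and 0 were called. Their part in the Nampt and Tdo2 values with BSO was not tested. Between Cse-/- mice on no-Trp with BSO and those on no-Cys, the log2 difference in Nampt was 0.27 (SE 0.121, adjusted p = 0.214), and the groups overlapped. There 3 of the 10 genes (Haao, Acmsd and Nnmt) had no overlap beside 12.7% of all genes, and in the test of BSO itself Nampt alone beside 12.6%. Between BSO and no-Cys, Acmsd differed by a log2 fold change of -0.37 (adjusted p = 0.357), and by -0.42 to -0.34 with libraries left out. Of 15 alternatives 1 called it (adjusted p = 0.0359).

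Haao (ENSMUSG00000000673, GRCm38 chromosome 17, 83831156 to 83847963, minus strand) was the 1 gene of the 10 called between the genotypes, and it was called there in the no-Cys comparison only. On that diet the Cse+/- livers were at 381.1, 396.4, 387.4 and 447.0 CPM, and the Cse-/- livers at 234.6, 208.5, 203.9 and 324.1 CPM. The groups did not overlap, and library av08 was the highest of the Cse-/- livers. Haao was 1.66-fold lower in the Cse-/- livers (log2 fold change -0.73, SE 0.122, adjusted p = 3.11e-04), in a comparison where 23.8% of all genes were called and 12.2% were called lower. It was also the 1 of the 10 whose groups did not overlap, as 23.2% of all genes did not. The call held in all 15 alternatives, with log2 fold changes from -0.90 to -0.64. On the no-Trp diet, Haao was at 353.3, 390.1 and 298.0 CPM in Cse+/- and at 332.2, 325.8 and 348.6 CPM in Cse-/- livers, a log2 difference of -0.05 (SE 0.140, adjusted p = 0.891).

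The difference between these genotype effects on Haao, tested as an interaction of genotype and diet, was -0.68 on the log2 scale (SE 0.186, adjusted p = 0.0418; 4.36% of all genes called). This call was at the edge of the threshold. It was lost, with an adjusted p of at most 0.101, when library av02, av03, av04, av05, av06, av07, av14, av15, av16, av17 or av20 was left out, and in the fit of the 4 groups alone (adjusted p = 0.0992), whereas DESeq2 kept it (adjusted p = 0.00857). Within Cse-/- mice, Haao was higher than on no-Cys both on no-Trp (log2 fold change 0.47, SE 0.130, adjusted p = 0.0284) and on no-Trp with BSO (369.2, 362.3, 338.6 and 345.0 CPM; log2 fold change 0.54, SE 0.122, adjusted p = 0.0241; 2.75% of genes called). These comparisons share the 4 no-Cys libraries, and neither overlapped. The first call was lost without library av05, av06, av07, av14 or av16 (adjusted p up to 0.0912) and in the fit of only the groups compared (adjusted p = 0.121), and the second without av05, av06, av07, av09, av11 or av12 (adjusted p up to 0.0976). Without library av08 all 3 were kept and farther from 0, the interaction at -0.85 (adjusted p = 0.00103), no-Trp against no-Cys at 0.64 (adjusted p = 5.15e-04) and BSO against no-Cys at 0.71 (adjusted p = 2.23e-04).

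Markers of cell types moved with Haao. The 9 hepatocyte markers together summed to between 53608 and 86864 CPM in Cse-/- no-Cys livers and between 100016 and 126935 CPM in Cse+/- no-Cys livers, with 1 called higher and 4 called lower. The 4 cholangiocyte markers summed to between 13.7 and 23.7 against between 42.2 and 49.9 CPM, with 1 called lower, and the 5 red cell markers to between 69.1 and 114.2 against between 200.7 and 405.7 CPM, all called lower. The 6 stellate cell and fibroblast markers (184.5 to 225.9 against 232.9 to 279.5 CPM, 2 called lower) and the 8 lymphocyte markers (1.92 to 2.29 against 2.34 to 5.29 CPM, 1 called lower) did not overlap in their sums either. Of the Kupffer cell and of the endothelial markers, 1 each was called higher. Markers also moved in the comparisons with Cse-/- no-Cys livers in which Haao was higher. On no-Trp the hepatocyte, cholangiocyte and red cell lists, with the calls given at Nampt, summed to between 83076 and 90035, between 24.5 and 43.2 and between 119.0 and 183.9 CPM. On no-Trp with BSO, 3 hepatocyte and 2 cholangiocyte markers were called higher, and the sums were between 78069 and 94678, between 31.9 and 44.0 and between 68.3 and 165.9 CPM. None of these markers was at 0 in all libraries. Their part in the differences in Haao was not tested.

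Tdo2 (ENSMUSG00000028011, GRCm38 chromosome 3, 81957090 to 81976202, minus strand) acts on Trp itself, and it was lowest in the no-Trp livers without BSO. It was at 2536 and 2601 CPM in the control livers. On the no-Trp diet it was at 1699, 1729 and 1521 CPM in Cse+/- and at 1599, 1842 and 1461 CPM in Cse-/- livers. With no-Cys food it was at 2210, 1949, 1921 and 2036 CPM in Cse+/- and at 1873, 2080, 1913 and 2374 CPM in Cse-/- mice, and in the livers given BSO it spread from 1759 through 2032 and 2312 to 2658 CPM. The 6 no-Trp livers without BSO lay below the 8 no-Cys livers, which in turn lay below both control livers.

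The separate tests of Tdo2 did not pass the threshold. In Cse+/- mice the no-Trp diet differed from the control diet by a log2 fold change of -0.64 (SE 0.150, adjusted p = 0.176), and DESeq2 called this difference (adjusted p = 0.0132). Over all 12 alternatives its adjusted p ranged from 0.0132 to 0.618. No-Trp against no-Cys gave -0.30 (SE 0.127, adjusted p = 0.155) in Cse+/- and -0.33 (SE 0.127, adjusted p = 0.0976) in Cse-/- mice, with no overlap in either. Averaged over both genotypes, in the comparison added later, Tdo2 was 1.25-fold lower on the no-Trp diet (log2 fold change -0.32, SE 0.0900, adjusted p = 0.0238). The call was lost without library av14, av16 or av20 (adjusted p up to 0.0686) and kept in 17 of 21 alternatives. In that comparison 3 hepatocyte, 2 cholangiocyte, 1 red cell and 2 adipocyte markers were called higher and 1 hepatocyte marker lower, and their part in the Tdo2 value was not tested. Tdo2 and Nampt were the 2 genes of the 10 without overlap between the 6 no-Trp and 8 no-Cys livers, where 1.20% of all genes had none.

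With BSO, Tdo2 in Cse-/- mice on the no-Trp diet differed by a log2 fold change of 0.42 (SE 0.128, adjusted p = 0.125), and the groups overlapped through library av10. DESeq2 called this difference (adjusted p = 0.0393). No gene of the 10 was called with BSO by edgeR, where 0.793% of all genes were, and 2 of the 10 had an unadjusted p under 0.05, beside 13.0% of all genes. DESeq2 called 2, Nampt and Tdo2, where it called 2.80% of genes.

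**Figure D3:**
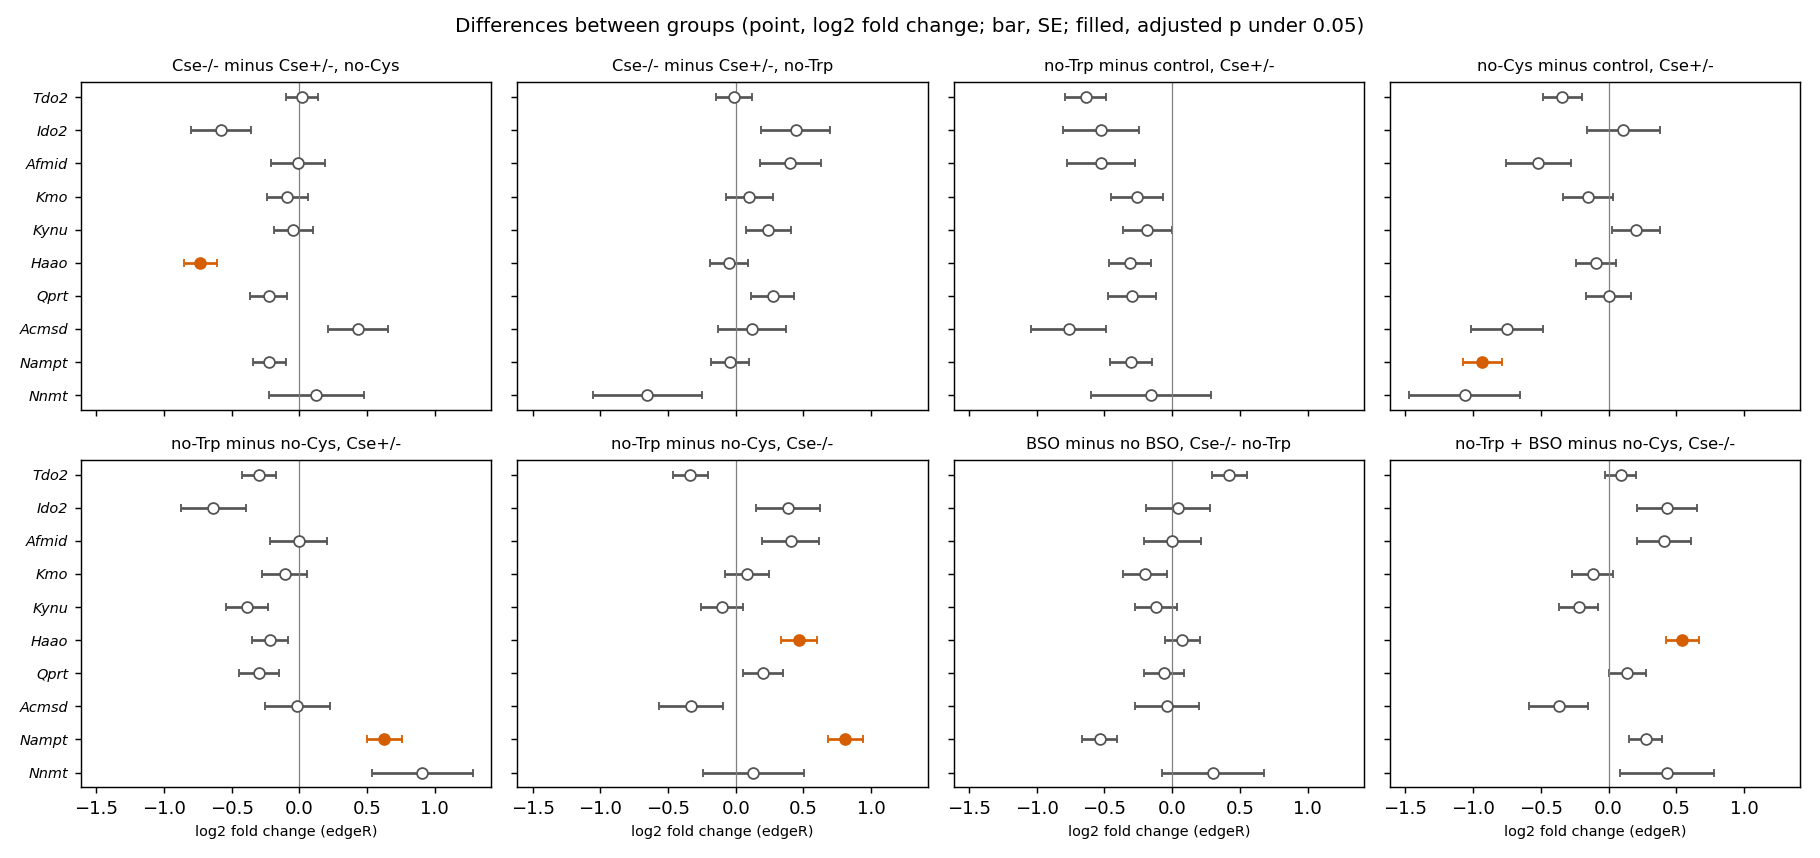
Differences between groups for the 10 genes as log2 fold change (x axis) with SE bars from edgeR, for 8 comparisons. Filled points passed an adjusted p of 0.05: Haao in 3 comparisons and Nampt in 3.

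Ido2 (ENSMUSG00000031549, GRCm38 chromosome 8, 24531892 to 24576333, minus strand), the second enzyme that can open the indole ring, varied more between mice. On the no-Cys diet it was at 80.6, 104.7, 76.6 and 98.5 CPM in Cse+/- and at 55.8, 50.7, 43.9 and 91.0 CPM in Cse-/- livers, and library av08 alone reached the Cse+/- range. The log2 difference was -0.58 (SE 0.221, adjusted p = 0.0625). It passed the test without av08 (-0.85, adjusted p = 0.00539), in DESeq2 (adjusted p = 0.0415) and with no filter on low counts (adjusted p = 0.0182). On the no-Trp diet it was at 77.6, 58.7 and 38.1 CPM in Cse+/- and at 69.3, 102.2 and 65.1 CPM in Cse-/- livers, and the interaction was -1.02 on the log2 scale (SE 0.336, adjusted p = 0.0886), called in 4 of 21 alternatives. Among these were the fits without av08 and without av17, with an adjusted p down to 0.0103. No-Trp against no-Cys in Cse+/- mice was -0.64 (SE 0.240, adjusted p = 0.108). It was called without av17 (-0.90, adjusted p = 0.0487) and with no filter (-0.62, adjusted p = 0.0417), and was -0.41 (adjusted p = 0.370) without av20.

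Afmid, Kmo and Kynu, the kynurenine-forming and next 2 enzymes, passed the edgeR test in none of the comparisons as reported. Afmid (ENSMUSG00000017718, GRCm38 chromosome 11, 117825924 to 117839908, plus strand) lay between 23.5 and 54.0 CPM over all libraries. Part of its exons, 1566 bases, is shared on the same strand with Gm20708, to which 0 to 4 counts per library were assigned, so that reads from this stretch may be missing from its count. Kmo (ENSMUSG00000039783, GRCm38 chromosome 1, 175620381 to 175662116, plus strand) lay between 201.6 and 404.4 CPM, both extremes being no-Trp livers without BSO. Kynu (ENSMUSG00000026866, GRCm38 chromosome 2, 43555329 to 43682715, plus strand) lay between 132.8 and 166.8 CPM in Cse+/- no-Cys livers and between 83.0 and 128.5 CPM in Cse+/- no-Trp livers, with no overlap and a log2 difference of -0.39 (SE 0.155, adjusted p = 0.128), which fell to -0.22 (adjusted p = 0.451) without library av20. Its average over both genotypes was -0.24 (adjusted p = 0.131), and was called without library av15 (-0.32, adjusted p = 0.0496).

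Qprt and Acmsd act after Haao and were not called by edgeR in the comparisons as reported, although some alternatives called them. Qprt (ENSMUSG00000030674, GRCm38 chromosome 7, 127107114 to 127122226, minus strand) was at 160.8 to 182.5 CPM in Cse+/- and at 134.9, 143.3, 110.2 and 188.7 CPM in Cse-/- livers on the no-Cys diet, a log2 difference of -0.23 (SE 0.137, adjusted p = 0.247). Without library av08, which held the 188.7 CPM, the difference was -0.38 and passed the test (adjusted p = 0.0323). Without library av07, which held the lowest value of 110.2 CPM, it was -0.10 (adjusted p = 0.647). The interaction of genotype and diet for Qprt was -0.50 (adjusted p = 0.190), and of 21 alternatives 1 called it, the fit without av08 (-0.65, adjusted p = 0.0329). Qprt and Haao had r = 0.61 over the 20 libraries, a description with no test. Acmsd (ENSMUSG00000026348, GRCm38 chromosome 1, 127729413 to 127767978, plus strand) was at 27.1, 11.4, 13.5 and 12.4 CPM in Cse+/- and at 21.4, 20.8, 22.1 and 22.1 CPM in Cse-/- livers on that diet. The first of the Cse+/- values is library av01. With it the log2 difference of Acmsd was 0.43 (SE 0.222, adjusted p = 0.164), and without it 0.80 (adjusted p = 0.00279). Acmsd overlaps an antisense gene, 2900009J06Rik, over 94 exon bases, and the sources do not say whether the counting used strand.

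Acmsd in the control livers was at 27.8 and 25.9 CPM, above the no-Trp livers of Cse+/- mice (21.7, 15.4 and 10.7 CPM) and above 3 of their 4 no-Cys livers. Neither difference passed the test, at a log2 fold change of -0.77 (SE 0.276, adjusted p = 0.379) on the no-Trp and -0.75 (SE 0.263, adjusted p = 0.141) on the no-Cys diet. The second was called without library av01 (-1.10, adjusted p = 0.00470) and with no filter on low counts (-0.76, adjusted p = 0.0422).

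Nnmt (ENSMUSG00000032271, GRCm38 chromosome 9, 48591877 to 48605153, minus strand), which disposes of nicotinamide, had the widest spread between mice of a group. In Cse+/- mice it was at 255.7 and 176.8 CPM on the control diet, at 334.0, 149.9 and 99.1 CPM on the no-Trp and at 210.8, 80.4, 49.2 and 74.3 CPM on the no-Cys diet. In Cse-/- mice it was between 106.5 and 120.3 CPM on no-Cys, between 107.4 and 155.7 CPM on no-Trp and between 139.6 and 163.2 CPM with BSO. The spread in Cse+/- mice was wider than in Cse-/- mice on both diets, a difference that was not tested. Library av01 was again the highest of its group.

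The Nnmt differences between diets given here for Cse+/- mice turned on single libraries. No-Cys against control in Cse+/- mice was -1.06 on the log2 scale (SE 0.413, adjusted p = 0.191), and -1.66 without av01 (adjusted p = 0.00915). No-Trp against no-Cys in Cse+/- mice was 0.91 (SE 0.373, adjusted p = 0.140), and 1.51 without av01 (adjusted p = 0.00576). It fell to 0.27 (adjusted p = 0.695) without library av17, the no-Trp liver at 334.0 CPM. Between Cse-/- mice given BSO and those on no-Cys, Nnmt did not overlap, and the log2 difference was 0.43 (adjusted p = 0.517). That difference stayed between 0.39 and 0.46 with each library left out, and 1 of 15 alternatives called it (adjusted p = 0.0223). Adipocyte markers, of which 4 of 6 had enough counts for a test, differed in sum between Cse+/- no-Trp and no-Cys livers as given above, and their part in the Nnmt values was not tested.

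Some comparisons called none of the 10. Between genotypes on the no-Trp diet, edgeR called 0 of 10, where it called 2.64% of all genes. DESeq2, which called 4.92% of genes, also called 0. At an unadjusted p under 0.05 there were 0 beside 18.4% of all genes, and 0 had groups without overlap beside 19.6%. The genes had log2 differences from -0.65 (Nnmt) to 0.44 (Ido2) and a median of 0.11 against 0.00 over all genes. Between the no-Trp and control diets in Cse+/- mice, edgeR called 0 of 10, where it called 0.0474% of all genes, 3 of the 10 had an unadjusted p under 0.05 (Tdo2, Afmid and Acmsd) beside 9.29% of all genes, and DESeq2 called Tdo2 among 0.441% of genes. All 10 log2 fold changes were below 0 there, with a median of -0.31 against -0.01 over all genes, 51.5% of which were below 0. Between the same livers the hepatocyte markers summed to between 96137 and 104218 against between 129448 and 130946 CPM on the control diet, the Kupffer cell and macrophage markers to between 263.8 and 312.8 against between 209.0 and 232.8 CPM, and the 7 neutrophil markers to between 1.90 and 3.62 against between 0.476 and 0.905 CPM. Their part in these values was not tested. The same 2 control livers enter all 10 values, and 6 of the 10 genes did not overlap between the 3 no-Trp and 2 control livers (Tdo2, Afmid, Haao, Qprt, Acmsd and Nampt), a pattern that 27.4% of all genes showed.

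Some libraries were high or low in their group for many of the genes at once, and others were split. Library av20 was the lowest of the 3 Cse+/- no-Trp livers for 9 of the 10 genes (not Nampt), and for 37.6% of all genes tested. Library av15 was the highest of the 3 Cse-/- no-Trp livers for 8 of the 10 (not Haao or Nampt), and for 35.8% of all genes. Library av08 was the highest of the 4 Cse-/- no-Cys livers for 9 of the 10 (not Kmo), and for 30.4% of all genes. By contrast, library av01 was the highest of its group for 5 of the 10 and the lowest for 3, beside 30.4% and 30.2% of all genes. Library av10 was the highest for 4 and the lowest for 4, beside 27% and 29.7% of all genes. Over the 20 libraries, Ido2 and Qprt were the pair most alike (Pearson r = 0.80 between log2 CPM values), followed by Kmo and Kynu (r = 0.70), whereas Nampt and Tdo2 had r = -0.20. These values describe points that share group and library, and carry no test.

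Other genes of Trp metabolism were measured as well. Of 9 further genes of the kynurenine pathway and its glutarate branch, 8 had enough counts, and in the comparisons run 1 was called once, where 10.4% of all genes were called. This was Kyat1, a kynurenine aminotransferase, lower on no-Trp than on no-Cys in Cse-/- mice (120.4 against 183.8 CPM, log2 fold change -0.61, SE 0.189, adjusted p = 0.0448). Of 15 genes of other fates and carriers of Trp, 11 were tested, and of these 3 were higher and 1 was lower in Cse-/- no-Cys livers than in their Cse+/- counterparts, a comparison that called 23.8% of all genes. The largest fold there was that of Inmt, an N-methyltransferase of indole amines (288.0 against 592.5 CPM, log2 fold change -1.04, SE 0.293, adjusted p = 0.0142). Slc3a2, the heavy chain of amino acid carriers, was higher (81.9 against 43.6 CPM, log2 fold change 0.91, SE 0.178, adjusted p = 0.00111), and its interaction of genotype and diet was 1.24 (SE 0.270, adjusted p = 0.0133). The other genes higher between genotypes were Maoa and Wars2. Against no-Cys in Cse-/- mice, Inmt was called higher on no-Trp (1.41, adjusted p = 0.00830) and with BSO (1.13, adjusted p = 0.0425). Slc3a2 was called lower in both (-0.99, adjusted p = 0.00390, and -0.83, adjusted p = 0.0200). Genes of these lists are named here because few were called, after their values were seen.

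Ddc, the decarboxylase that makes serotonin and other amines from aromatic amino acids, passed the test in comparisons in which Tdo2 did not. It was lower on no-Trp than on the control diet in Cse+/- mice (15.5 against 39.6 CPM, log2 fold change -1.35, SE 0.236, adjusted p = 0.0315) and lower on no-Trp than on no-Cys in Cse+/- (-0.68, SE 0.206, adjusted p = 0.0487) and Cse-/- mice (-0.99, SE 0.207, adjusted p = 0.00579). With BSO it was higher (27.9 against 14.8 CPM, log2 fold change 0.93, SE 0.206, adjusted p = 0.0363). Of the 12581 genes with a mean of at least 1 CPM, Ddc was the one whose log2 CPM was most like that of Tdo2 (r = 0.89, n = 20 libraries). After group means were taken out, r was 0.66. The next genes were Ppp1r3c and Sds, each with r = 0.73, and 0.21 and 0.51 after group means were taken out.

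**Figure D4:**
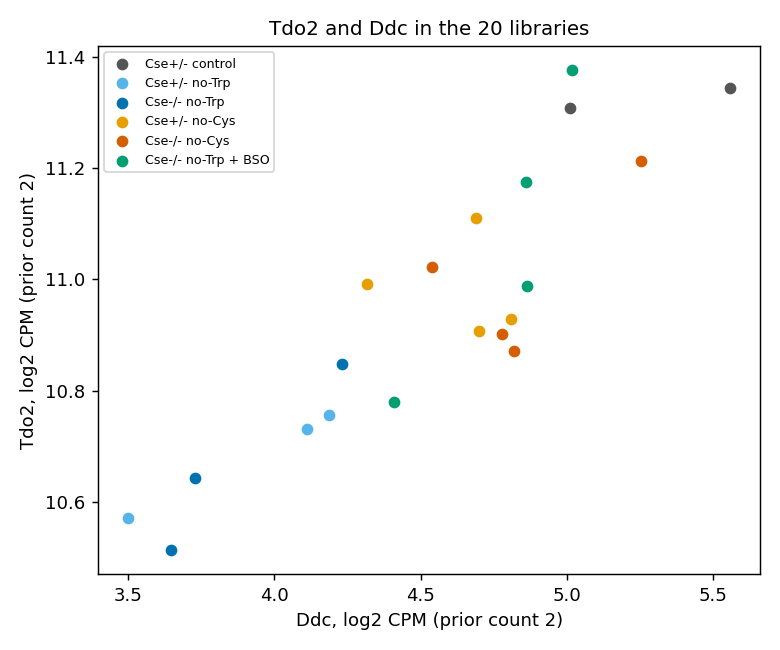
Tdo2 against Ddc in the 20 libraries (log2 CPM with a prior count of 2), coloured by group. The 6 no-Trp livers without BSO are at the low end for Ddc (11.2 to 18.7 CPM), the control livers at the high end for both, and r = 0.89 describes points that share group means.

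For Haao the genes most alike were Gamt, which makes creatine (r = 0.95), Slc27a5, which activates bile acids (r = 0.94), and Tcea3 (r = 0.92). These values were 0.84, 0.88 and 0.86 after group means were taken out, in the same libraries that were used to pick the genes. For Nampt they were Dnajb6 (r = 0.89), Lonrf1 (r = 0.87) and Nudt19 (r = 0.86), which fell to 0.41, 0.51 and 0.43. Acmsd was most like Gm5424, Ass1 and Cps1 (r = 0.88, 0.88 and 0.87), of which Ass1 and Cps1 are enzymes of the urea cycle. Kmo was most like Aadat, a further enzyme of kynurenine breakdown (r = 0.85), then Cpox (0.82) and Cyyr1 (0.81), and Ido2 like Cyp8b1 (0.87), Neb (0.87) and Prpsap2 (0.83).

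The nearest for Afmid were Hpd, an enzyme of tyrosine breakdown (r = 0.85), Ivd (0.82) and Slc27a1 (0.80). Kynu had Lrba (0.86), Atp5a1 (0.86) and Lclat1 (0.85). Qprt had Slco2b1 (0.86), Acy3 (0.86) and Serpind1 (0.85), and Nnmt had Arhgef19 (0.81), Mbnl2 (0.79) and Sult1d1 (0.79). All are descriptions over the same 20 libraries.

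Other routes to NAD were also measured. Of 13 further genes of NAD synthesis, transport and phosphorylation, 12 are in the table and 9 had enough counts. Nmrk1, the kinase that salvages nicotinamide riboside, was lower in Cse-/- than in Cse+/- no-Cys livers (30.9 against 46.4 CPM, log2 fold change -0.59, SE 0.145, adjusted p = 0.00610) and higher on no-Trp than on no-Cys in Cse-/- mice (56.3 against 30.9 CPM, 0.87, SE 0.153, adjusted p = 0.00175). Nadk2, the mitochondrial NAD kinase, was the other of the list called between genotypes (-0.38, SE 0.0871, adjusted p = 0.00368), so that 2 of 9 stand beside 23.8% of all genes, and its interaction was -0.57 (SE 0.133, adjusted p = 0.0187). Slc25a51, the carrier of NAD into mitochondria, was lower on the no-Cys than on the control diet in Cse+/- mice (107.9 against 213.8 CPM, -0.99, SE 0.200, adjusted p = 0.0133), in the comparison left with 10 calls without av22. Between no-Trp and no-Cys in Cse+/- mice, Nmnat3 (-0.74, SE 0.161, adjusted p = 0.00929), Nadsyn1 (-0.59, SE 0.113, adjusted p = 0.00430) and Nadk2 (-0.45, SE 0.0947, adjusted p = 0.00826) were lower while Nampt was higher, 3 of the 9 beside 8.04% of all genes called. The genes of this list named here were among its called genes with the largest fold in a comparison, and were named after their values were seen.

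Of 20 genes that use NAD or oxidise nicotinamide derivatives, 19 were tested, and between genotypes with no-Cys food 3 were higher in Cse-/- livers (Aox1, Nnt and Sirt2) and 2 were lower (Parp14 and Aox3). These 5 of 19 stand beside 23.8% of all genes called there. Aox1, an aldehyde oxidase that acts on methylated nicotinamide, the product of Nnmt, was the most changed (124.5 against 53.4 CPM, log2 fold change 1.22, SE 0.175, adjusted p = 7.57e-05). It was lower on no-Trp than on no-Cys in Cse-/- mice (-1.22, SE 0.192, adjusted p = 6.57e-04) and higher with BSO than without (131.7 against 53.5 CPM, 1.30, SE 0.192, adjusted p = 0.00216). Its interaction of genotype and diet was 1.10 (SE 0.265, adjusted p = 0.0233).

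Tdo2 is known as a gene that glucocorticoids induce, and 7 genes of glucocorticoid response were measured beside it. Zbtb16 was higher in Cse-/- than in Cse+/- no-Cys livers (71.5 against 22.6 CPM, log2 fold change 1.66, SE 0.379, adjusted p = 0.00354) and Tsc22d3 lower (126.3 against 333.0 CPM, -1.40, SE 0.276, adjusted p = 0.00119), and Sgk1 was also called lower (21.1 against 33.8 CPM), 3 of the 7 beside 23.8% of all genes called. In Cse+/- mice, Fkbp5 was lower on the no-Cys than on the control diet (142.5 against 298.2 CPM, -1.07, SE 0.264, adjusted p = 0.0374), in the comparison left with 10 calls without av22. Fkbp5 was higher on the no-Trp than on the no-Cys diet (0.93, SE 0.238, adjusted p = 0.0214), where Tsc22d3 was lower (-1.59, SE 0.306, adjusted p = 0.00451). In the average over both genotypes, where Tdo2 was called lower, Tsc22d3 (-0.91, SE 0.212, adjusted p = 0.00807) and Tat (-0.56, SE 0.174, adjusted p = 0.0354) were called lower on no-Trp than on no-Cys, with a list median of -0.32 and 15.4% of all genes called. In Cse-/- mice between no-Trp and no-Cys, and in Cse+/- mice between no-Trp and control, all 7 log2 fold changes were below 0, with medians of -0.24 and -0.56, without passing the edgeR test. Over all genes 49.2% and 51.5% were below 0 in these comparisons. Whether glucocorticoids had a part in the Tdo2 values was not tested.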

How the data were processed

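Poly(A) RNA from livers was sequenced, and the authors deposited read counts per Ensembl gene, made with HISAT2 2.1.0 and HTSeq 0.11.0 (submitters' processing notes) on GRCm38, without normalization. The annotation release and the strand setting are not given in the sources used here. Columns were assigned to groups by the study's list of mice, and carry no replicate numbers. Of its columns, 1 was not used. Coordinates, symbols (for 45229 of 46078 genes) and exon lengths come from GENCODE M21 for GRCm38. The genes described, the lists and the tests were chosen with earlier results of these data known.

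Genes passing filterByExpr (minimum count 10, minimum total 15) numbered 14759. A quasi-likelihood model in edgeR 4.0.16 (R 4.3.3; limma 3.58.1 installed) with TMM factors covered all 20 libraries, with 6 group means. Two-sided P values were Benjamini-Hochberg adjusted over all genes tested, and 0.05 was the threshold. CPM used TMM-scaled library sizes, and log2 CPM for correlations a prior count of 2. CPM per kb divides by the exon length of the gene. SE is the size of the log2 fold change over the root of F. The fit was checked on simulated counts. Depth was 11785740 to 57986121 counts per library. No 2 libraries of a group were duplicates: 25 within-group pairs gave a mean chi-square between 9.60 and 64.2 per gene.

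Genes were named from the 10 genes, from up to 3 called genes of each pathway list with the largest fold per comparison, and from the 3 genes most correlated with each of the 10. Not every gene of the lists that met this rule is named. Further called genes of the lists were named after their values were seen, where few of a list were called. As alternatives, DESeq2 1.42.0 (Wald test), RLE or upper-quartile factors, no filter, a minimum mean CPM of 1, fits of the compared groups alone, a threshold of 0.01 and omission of each library were run. The average over both genotypes was added after the data were seen.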

Additional observations from a re-analysis of the deposited data

Results flagged for a closer look

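Afmid was at 26.1 CPM in library av10 (Cse-/-, no-Trp with BSO), where the nearest of the other 3 livers of the group was at 47.3 CPM. Acmsd was at 27.1 CPM in library av01 (Cse+/-, no-Cys), where the nearest of the other 3 was at 13.5 CPM. Both stood out by a gap test, run 30 times on the 10 genes in 3 groups of 4 livers, which marks about 1 in 20 groups by chance. The 2 marked are thus near what chance gives. The genotype effect on Haao differed between the no-Cys and no-Trp diets, by -0.68 on the log2 scale (edgeR interaction, adjusted p = 0.0418). This call was lost in 11 of 14 fits that left out a library (adjusted p up to 0.101), in the fit of only the groups compared (adjusted p = 0.0992) and at a threshold of 0.01.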

How the results depend on the processing

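No paired analysis was possible because the columns of the count table carry no replicate numbers, so that no replicate block could be fitted. Over 152 recomputed counts of called genes among the 10, 102 stayed within 1.5 times the reported count and 50 did not. Of 544 recomputed fold changes for 35 gene and comparison pairs (28 with an unadjusted p under 0.05 and 7 called under an alternative), 482 kept their direction and side of the threshold, 32 lost and 30 gained a call, and 0 changed sign. Of the other 65 pairs, 30 changed sign under an alternative, with 0 sign changes called. The cause of the changes below was not tested.

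Counts of the 10 genes called, given as reported and then as recomputed, were as follows. For Cse-/- against Cse+/- on no-Cys, 1 became 2 with no filter and in DESeq2, and 1 to 3 with libraries left out (av01 or av08 change it). For no-Trp against control, 0 became 1 in DESeq2. For no-Cys against control, 1 became 3 with no filter and 0 to 3 with libraries left out (av01, av22). For no-Trp against no-Cys in Cse+/- mice, 1 became 3 with no filter and 1 to 2 with libraries left out (av01, av17). In Cse-/- mice, 2 became 1 in the fit of only the groups compared and at an adjusted p under 0.01, and 1 to 2 with libraries left out. With BSO against without, 0 became 1 with upper-quartile factors and with no filter, 2 in DESeq2, and 0 to 1 with libraries left out (av10). With BSO against no-Cys, 1 became 3 in the fit of only the groups compared, 0 at an adjusted p under 0.01 and 0 to 2 with libraries left out. For the interaction, 1 became 2 with no filter and in DESeq2, 0 in the fit of only the groups compared and at an adjusted p under 0.01, and 0 to 3 with libraries left out. For the average over genotypes, 2 became 1 at an adjusted p under 0.01 and 1 to 3 with libraries left out.

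Counts over all genes moved by over 1.5 times in several comparisons. For no-Cys against control, 322 genes became 10 without av22, and 169 to 418 with other libraries left out. With 1 library left out, the genotype comparison on no-Trp fell from 389 to as few as 109 (av15), no-Trp against control from 7 to 2 (av17, av20 or av22), no-Trp against no-Cys from 1186 to 597 (av02) in Cse+/- and from 1535 to 683 (av14) in Cse-/- mice, the average over genotypes from 2269 to 1357 (av14) and BSO against none from 117 to 36 (av09). BSO against no-Cys went from 406 to between 52 (av06) and 1027 (av08), and the interaction from 643 to between 350 (av07) and 1150 (av08). For no-Trp against control, edgeR called 7 genes, DESeq2 60 and the fit with no filter 71. For BSO against none they were 117, 352 and 287. In the fit of only the groups compared, the genotype comparison on no-Trp had 83 genes instead of 389, and no-Trp against no-Cys in Cse-/- mice 521 instead of 1535. DESeq2 called 720 instead of 389 between genotypes on no-Trp, 613 instead of 322 for no-Cys against control, 876 instead of 406 for BSO against no-Cys and 1055 instead of 643 for the interaction. Groups of 2 to 4 livers limit the precision of every value.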
